A study of Mus musculus with 24 samples.

Results

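The Cyp2c genes encode cytochrome P450 monooxygenases of the liver, and 10 of them (Cyp2c29, Cyp2c37, Cyp2c38, Cyp2c39, Cyp2c40, Cyp2c50, Cyp2c54, Cyp2c55, Cyp2c69 and Cyp2c70) were examined as candidates to compensate for the loss of Cyp2b enzymes. Each was found by its symbol, once, among 46068 gene symbols in both tables of read counts. Liver RNA came from C57BL/6 mice that were wild type (WT) or carried the Cyp2b9/10/13-null genotype (Cyp2b-null). They were fed normal chow (ND) or a high-fat diet with 60% fat (HFD), both for 10 weeks, which gave 4 groups of 3 libraries in each sex. Ages, and whether each library stands for 1 animal, were not given in the sources used here. A p-value therefore measures only the spread between libraries, which may be technical. Male and female RNA was extracted and made into libraries with different kits. Sex and kit therefore cannot be told apart, and every test was made within 1 sex. Levels are counts scaled to library size with TMM factors (CPM), given as mean ± SD (n = 3 libraries) or for libraries 1, 2 and 3 in turn. Differences are log2 values ± SE from edgeR's quasi-likelihood test, and a call is a Benjamini-Hochberg adjusted p below 0.05 over all genes tested.

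Cytochrome P450 enzymes of family 2 insert an oxygen atom into drugs, steroids and unsaturated fatty acids, with electrons passed on by P450 oxidoreductase and cytochrome b5. Cyp2b and Cyp2c enzymes overlap in both kinds of substrate: several Cyp2c enzymes turn arachidonic and linoleic acid into epoxides. Liver Cyp2c genes are regulated by HNF4A, a nuclear receptor of hepatocytes, by the drug-sensing receptors CAR and PXR, and for some members by the sex-dependent pattern of growth hormone.

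All 10 genes are protein coding and lie in 1 cluster on chromosome 19 (GRCm38, GENCODE M21), from the start of Cyp2c55 at 39007019 to the end of Cyp2c70 at 40187333. Among the arachidonic acid epoxygenases, Cyp2c29 lies at 39269405 to 39330713 on the forward strand and Cyp2c38 at 39389556 to 39463075 on the reverse strand. The retinoic acid hydroxylase gene Cyp2c39 follows at 39510862 to 39568529 on the forward strand. Cyp2c40 (39767071 to 39812814) and Cyp2c69 (39842814 to 39886799) are neighbours on the reverse strand. Cyp2c37 (39992424 to 40012243, forward), Cyp2c54 (40037940 to 40073827, reverse) and Cyp2c50 (40089688 to 40113950, forward) form a further run. Cyp2c70 (40153353 to 40187333, reverse), the enzyme that makes muricholic acids from chenodeoxycholic acid in mice, ends the cluster.

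Close copies limit how far reads can be assigned to single genes. Of all stretches of 50 bases in the exons, 72.1% in Cyp2c40 and 54.8% in Cyp2c69 also occur in another gene of the annotation, most often in each other. Their coding sequences are 97.9% identical, and Cyp2c40 and its neighbour Cyp2c68 are 98.1% identical. Cyp2c37 and Cyp2c50 are 96.13% identical, and Cyp2c50 and Cyp2c54 95.25%, with 25.7% to 30.7% of their stretches shared. Cyp2c38 and Cyp2c39 share 94.23% of coding positions but 12% or less of their stretches. Cyp2c29 (2.08%), Cyp2c55 (0.514%) and Cyp2c70 (0) are nearly free of shared stretches. How the counting treated reads with several matches is not given in the sources used here, so the split within Cyp2c40 and Cyp2c69, and within Cyp2c37, Cyp2c50 and Cyp2c54, is uncertain.

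The copies extend upstream of the genes. The 85-base windows below lie before the RefSeq start (GRCm38.p6, reverse strand, 5′ to 3′) of Cyp2c40 (chr19:39812815-39812899) and Cyp2c69 (chr19:39886800-39886884), whose levels moved together in these libraries, and of the neighbouring copies Cyp2c67 (chr19:39649123-39649207) and Cyp2c68 (chr19:39741134-39741218). Capitals mark the letters CAAAGTCCA, a sequence type known to be bound by HNF4A.
Cyp2c40: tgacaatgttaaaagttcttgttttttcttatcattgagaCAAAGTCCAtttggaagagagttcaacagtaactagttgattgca
Cyp2c69: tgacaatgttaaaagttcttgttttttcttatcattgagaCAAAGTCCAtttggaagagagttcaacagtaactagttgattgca
Cyp2c67: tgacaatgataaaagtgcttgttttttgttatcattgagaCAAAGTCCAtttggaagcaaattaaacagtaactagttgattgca
Cyp2c68: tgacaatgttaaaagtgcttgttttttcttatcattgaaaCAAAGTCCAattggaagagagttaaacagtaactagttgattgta
The Cyp2c40 and Cyp2c69 windows differ at 0 positions, and against Cyp2c69 the Cyp2c67 window differs at 7 and the Cyp2c68 window at 5. Searched on both strands, CAAAGTCCA occurs in 156 of 32851 RefSeq promoter windows of 300 bases (0.475%). It occurs in 5 of the 12 windows matched to Cyp2c genes, those of the 4 genes above and Cyp2c70. Promoters were matched for 9 of the 10 members. The letters TATAAA occur in 8 of the 12 windows (13.6% of all promoters) and AGGTCA, a half-site of many nuclear receptors, in 3 (16.3%). A match is a description of the letters and not a measured binding site.

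The deleted genes were checked first. Female WT libraries held 565 to 1138 counts of Cyp2b13 and all 6 Cyp2b-null libraries held 0, where a count of 0 allows up to 3 counts. The log2 difference of Cyp2b9, Cyp2b-null minus WT females, was -6.81 ± 0.45 on ND (edgeR adjusted p = 3.31e-06) and -8.82 ± 0.53 on HFD (adjusted p = 9.48e-07). Female Cyp2b10 was lower without overlap on both diets, and not called. It had 31.3 ± 15.1 CPM (WT) and 3.77 ± 2.73 CPM (Cyp2b-null) on ND (-3.02 ± 0.87, adjusted p = 0.424). On HFD it had 17.6 ± 19.4 CPM and 0.617 ± 1.07 CPM (-4.87 ± 1.2). On ND, male Cyp2b13 was at 2.72 ± 0.689 CPM with the WT label and 2.84 ± 1.92 CPM with the Cyp2b-null label. Male Cyp2b10 ran with the label on ND, at 4.88 ± 3.09 CPM (WT) and 0.774 ± 0.225 CPM (labelled group) without overlap (-2.60 ± 0.70, adjusted p = 0.186). So did Cyp2b9 on HFD (-2.58 ± 0.71, adjusted p = 1), whereas on ND Cyp2b9 ran against it (3.67 ± 0.997, adjusted p = 0.192). The male counts therefore do not settle the label, and the term males labelled Cyp2b-null is used. Depth was 2.01 M to 2.66 M counts per female library and 8.28 M to 20.2 M per male one. One male library, Cyp2b-null ND library 1, differed from all others. The share of mitochondrially encoded protein genes was 32% there and at most 7.76% elsewhere in males, the median Spearman correlation with the rest was 0.8 (0.965 or more elsewhere), and hepatocyte markers summed to 44252 CPM (76415 CPM or more elsewhere). For males on ND, the members' differences are given with and without it. Among females, library 1 of WT on ND had 13.96% mitochondrially encoded counts and library 1 of WT on HFD 8.54%, against at most 7.17% in the others. The 9 hepatocyte markers, Alb and Hnf4a among them, were expressed in every group, and the intestinal factor Cdx2 had 0 counts in all libraries. In bulk liver, fewer cells of a type and less RNA per cell cannot be told apart.

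The family was unevenly expressed, and the order of its members differed between the tables of the sexes. Per kb of exon over the 12 female libraries, Cyp2c37, a phenobarbital-inducible enzyme, was highest at a mean of 657.5 CPM per kb, ahead of Cyp2c69 (444), Cyp2c29 (278), Cyp2c50 (278), Cyp2c70 (269), Cyp2c40 (182), Cyp2c54 (146), Cyp2c38 (59.2) and Cyp2c39 (4.65). Only the last step in this order separated genes whose libraries did not overlap: Cyp2c38 ranged from 47.1 to 73.6 CPM per kb and Cyp2c39 from 2.55 to 7.47. Cyp2c55, better known from colon, had 1 to 20 counts per female library and was the only member that did not pass the filter there.

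In the male table the order per kb began with Cyp2c29 (479 CPM per kb), followed by Cyp2c50 (294), Cyp2c37 (249), Cyp2c70 (226), Cyp2c54 (206) and Cyp2c38 (21.4). Below these came Cyp2c55 (3.04), Cyp2c69 (2.40), Cyp2c39 (1.89) and Cyp2c40 (1.46). The 5 highest overlapped with their neighbours. Cyp2c38, at 14.0 to 32.7 CPM per kb, lay apart from both Cyp2c54 (65.3 to 346) and Cyp2c55 (0.25 to 7.92), and the last 4 overlapped. All 10 members passed the male filter.

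**Figure D1:**
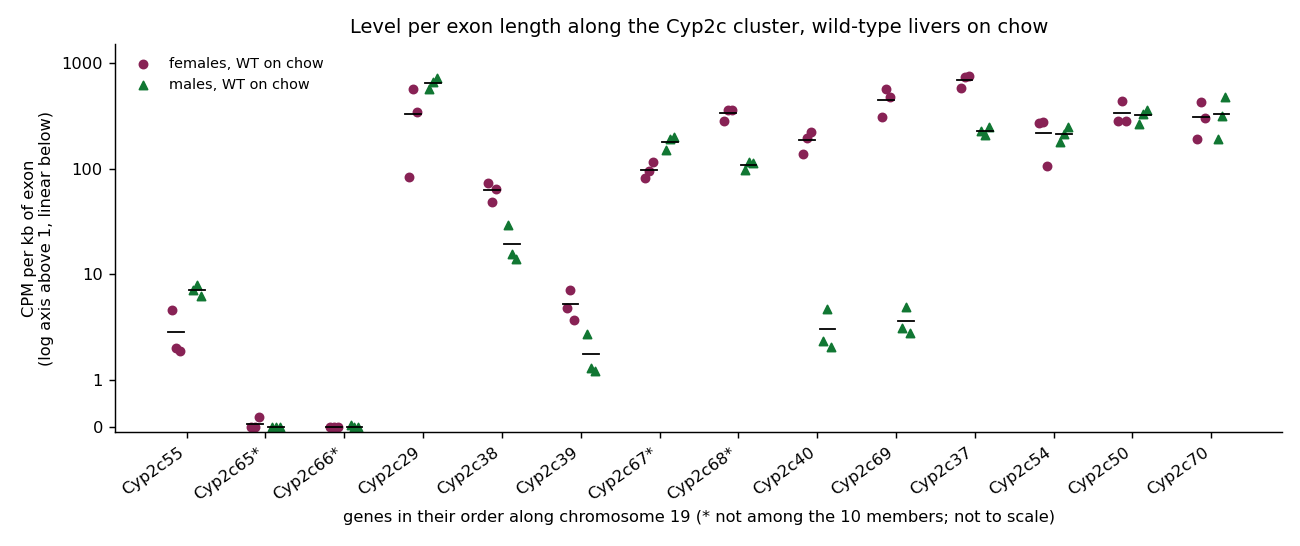
CPM per kb of exon (vertical axis, logarithmic above 1 and linear below) of the Cyp2c genes of the cluster in WT livers on ND, in their order on chromosome 19 and not to scale. Each point is 1 library (circles females, triangles males), black lines are means of 3 libraries, and asterisks mark genes outside the 10. Cyp2c40 and Cyp2c69 lie above 100 CPM per kb in every female library and below 5 in every male one, while Cyp2c54, Cyp2c50 and Cyp2c70 lie side by side.

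Cyp2c40 and Cyp2c69 had the widest gap between the tables among the 10 members. The tables were normalized separately and come from different kits, so these levels are set side by side without a test. Cyp2c40 stood at 273 to 502 CPM in the 12 female libraries and at 0.268 to 9.53 CPM in the male ones. Cyp2c69 stood at 470 to 1030 CPM in females and at 0 to 8.34 CPM in males. The shared stretches of these genes also occur in Cyp2c67 and Cyp2c68, whose levels were closer: in WT on ND, Cyp2c67 had 141 to 201 CPM in females and 259 to 344 CPM in males, and Cyp2c68 had 481 to 621 CPM and 167 to 198 CPM. Cyp2c29 made up 42.8% to 46.4% of the summed CPM of the 10 members in WT males on ND and 6.27% to 24.1% in WT females on ND.

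**Figure D2:**
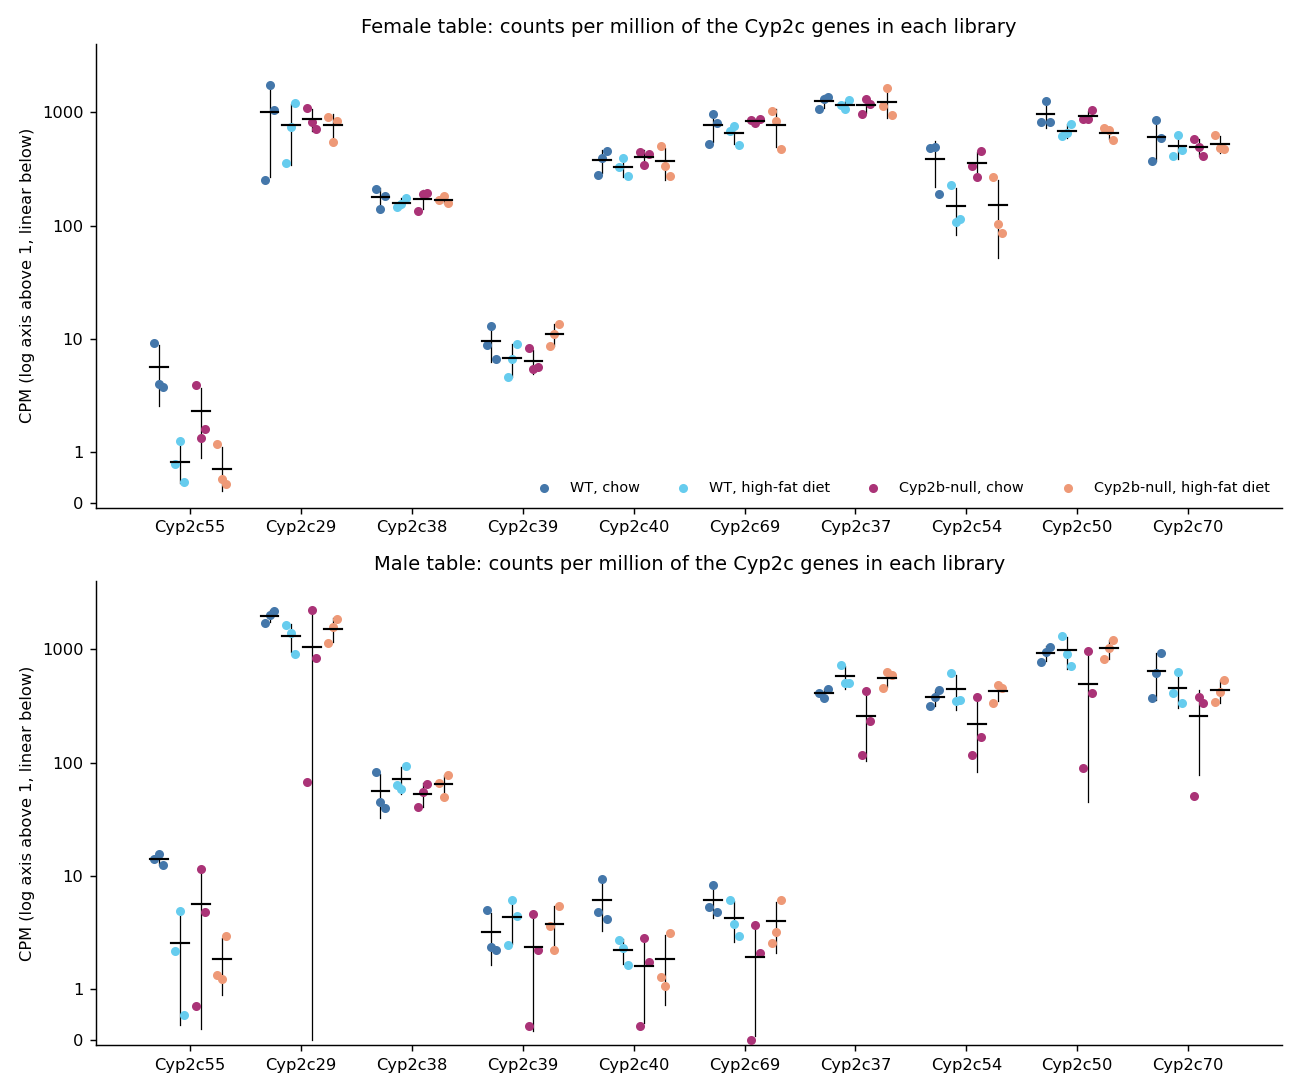
CPM of the 10 Cyp2c genes (vertical axis, logarithmic above 1 and linear below) in each female (upper) and male (lower) library, by group, in chromosome order. Points are libraries, horizontal lines the mean and vertical lines the SD of 3 libraries, drawn down to 0 at most. Groups overlap for most genes, and male Cyp2b-null ND library 1 is the lowest male point for 8 of the 10 genes.

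No Cyp2c gene was called between Cyp2b-null and WT females on ND. The 9 tested members differed by -0.55 (Cyp2c39) to 0.14 (Cyp2c69), 2 of them higher and 7 lower in Cyp2b-null livers, with a median of -0.11 against -0.02 over all genes. None was called and none had an unadjusted p below 0.05, where edgeR called 0.127% of the 11830 genes and 6.33% had such a p. DESeq2 called 70 genes, 0 of them members. No member's groups were free of overlap, against 11.3% of genes either way. The 95% interval excluded a 2-fold rise for 8 of the 9 members, the exception being Cyp2c29, and excluded a 2-fold change in both directions for 6.

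The abundant epoxygenases show the spread behind these values. On ND, Cyp2c29 had 252, 1722 and 1044 CPM in WT females and 1092, 814 and 715 CPM in Cyp2b-null ones. The latter lay inside the WT range (log2 difference -0.20 ± 0.59, 95% interval -1.51 to 1.10, edgeR adjusted p = 0.987). The lowest value, 252 CPM, came from the library with 13.96% mitochondrially encoded counts; the part of RNA quality in it was not tested. Cyp2c38 had 211, 140 and 184 CPM in WT, against 135, 190 and 192 CPM without Cyp2b (-0.05 ± 0.20), and its ranges overlapped too.

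Cyp2c37, Cyp2c50 and Cyp2c54 are close copies of one another and oxidise arachidonic acid. On ND, Cyp2c37 had 1061, 1321 and 1358 CPM in WT females against 968, 1301 and 1192 CPM without Cyp2b (-0.11 ± 0.22, 95% interval of the fold 0.669 to 1.28). Cyp2c50 had 824, 1254 and 827 CPM against 874, 880 and 1041 CPM (-0.06 ± 0.21). Cyp2c54 had 479, 496 and 191 CPM against 336, 269 and 456 CPM (-0.14 ± 0.48). None of the 3 separated the genotypes, and relative to their mean the Cyp2c54 libraries spread more than the others within each group.

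Cyp2c40 and Cyp2c69 overlapped between the genotypes. Cyp2c40, which hydroxylates arachidonic acid, had 282, 393 and 454 CPM in WT females on ND against 446, 345 and 428 CPM without Cyp2b (0.11 ± 0.25, 95% interval -0.42 to 0.64). Cyp2c69 had 527, 971 and 801 CPM against 858, 804 and 867 CPM (0.14 ± 0.28, 95% interval -0.45 to 0.73). In both genes the lowest value was WT library 1. Cyp2c70 had 374, 845 and 594 CPM against 585, 494 and 408 CPM (-0.29 ± 0.27), with the highest and the lowest library both in WT. Cyp2c39 had 8.80, 13.0 and 6.72 CPM against 8.25, 5.39 and 5.66 CPM (-0.55 ± 0.38, edgeR adjusted p = 0.879). Cyp2c55 had 9.26, 3.99 and 3.78 CPM against 3.91, 1.35 and 1.62 CPM and was not tested.

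On HFD, Cyp2b-null females again had no called Cyp2c gene. The differences ran from -0.05 (Cyp2c50) to 0.71 (Cyp2c39), with 8 members higher and 1 lower and a median of 0.09. None had an unadjusted p below 0.05, against 2.44% of genes, where edgeR called 0.0169% and DESeq2 called 0 members. No member's groups were free of overlap, against 6.97% of genes. A 2-fold rise was excluded for 6 members and within reach of the interval for Cyp2c29, Cyp2c39 and Cyp2c54. Cyp2c39 had 4.63, 6.66 and 9.07 CPM in WT females on HFD against 8.61, 11.1 and 13.6 CPM without Cyp2b. Its highest WT library lay above the lowest Cyp2b-null library (0.71 ± 0.36, 95% interval -0.07 to 1.49, edgeR adjusted p = 1).

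The other members overlapped closely on HFD. Cyp2c29 had 354, 743 and 1197 CPM in WT females against 908, 549 and 838 CPM without Cyp2b, with a difference of 0.00 ± 0.59. Cyp2c37 had 1153, 1063 and 1271 CPM against 1145, 1621 and 938 CPM, and Cyp2c38 had 146, 156 and 176 CPM against 167, 183 and 158 CPM. In each of these the Cyp2b-null range overlapped that of WT. The differences were 0.09 ± 0.22 for Cyp2c37 and 0.09 ± 0.20 for Cyp2c38. Cyp2c40 had 326, 394 and 273 CPM against 502, 334 and 273 CPM, and Cyp2c69 had 684, 755 and 509 CPM against 1030, 830 and 470 CPM. Both were highest in Cyp2b-null library 1 and lowest in Cyp2b-null library 3. Cyp2c70 had 407, 633 and 466 CPM against 632, 484 and 470 CPM. These 3 differed by 0.16 ± 0.25 for Cyp2c40, 0.26 ± 0.28 for Cyp2c69 and 0.07 ± 0.27 for Cyp2c70. Cyp2c50 (-0.05 ± 0.21) and Cyp2c54 (0.03 ± 0.48) also overlapped, at 617 to 793 CPM against 564 to 727 CPM and at 107 to 226 CPM against 85.2 to 268 CPM.

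**Figure D3:**
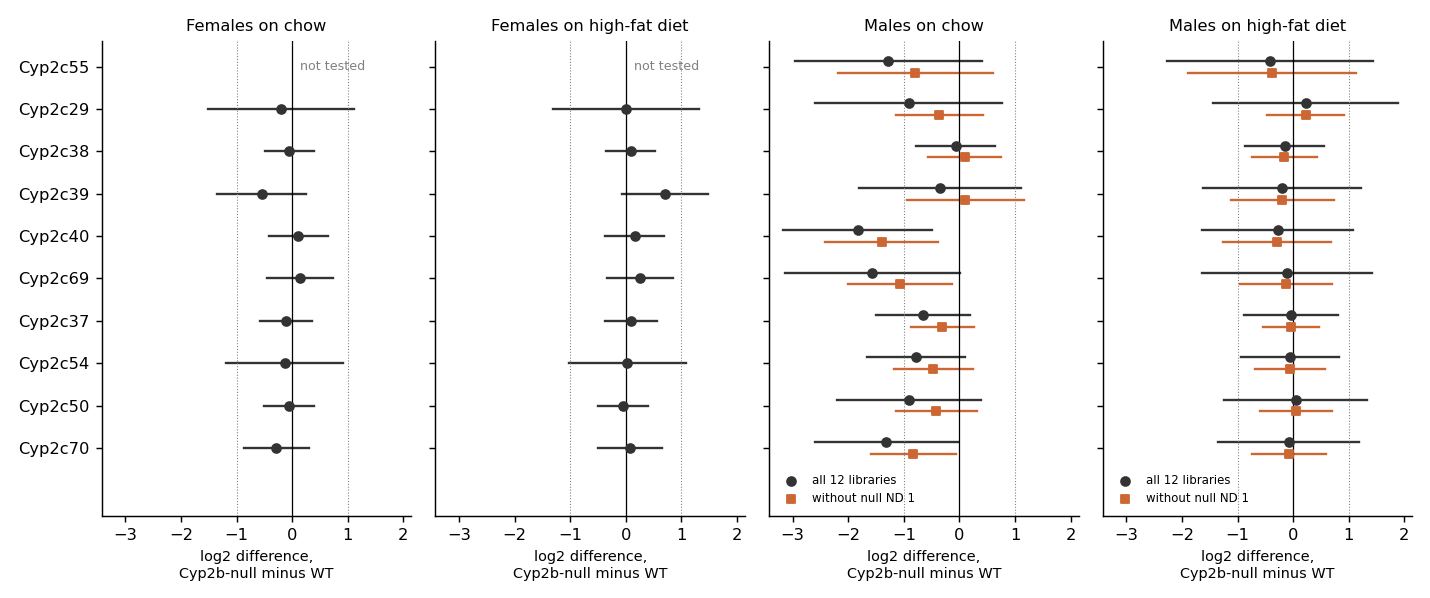
Log2 difference, Cyp2b-null minus WT (horizontal axis), of each Cyp2c gene on ND and on HFD in females (left 2 panels) and males (right 2 panels); points are edgeR estimates, lines their 95% intervals, dotted lines a 2-fold change. Orange squares leave out male Cyp2b-null ND library 1. The intervals of the females lie around 0. On ND the male estimates other than Cyp2c38 move towards 0 without that library. Cyp2c40 is at -1.83 and then -1.40, and Cyp2c38 at -0.07 and then 0.09.

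In males on ND, all 10 members were lower in the group labelled Cyp2b-null, and none was called. The differences ran from -1.83 (Cyp2c40) to -0.07 (Cyp2c38), with a median of -0.91 against 0.06 over all genes. At an unadjusted p below 0.05 were 2 members, Cyp2c40 and Cyp2c70, where 18.6% of genes were. EdgeR called 0.0134% of 14873 genes, and DESeq2 called 369 genes, 0 of them members. The ranges of Cyp2c40, Cyp2c55 and Cyp2c69 did not overlap and were lower, as for 12.5% of all genes. Without library 1 of that group 8 members were lower and 2 higher, the median was -0.44, and again none was called (0.0462% of 15139 genes were), with Cyp2c40, Cyp2c69 and Cyp2c70 at an unadjusted p below 0.05. Without library 2 of that group, Cyp2c54 was called lower (-1.44, edgeR adjusted p = 0.0469), the only call of a member in any comparison under any alternative. That fit called 724 genes in all, and it kept library 1, which stood apart. All 9 hepatocyte markers were lower in this comparison too, with a median of -0.63 and none called, and 8 of 9 without library 1, with a median of -0.59. They summed to 95835 and 93704 CPM in libraries 2 and 3 of that group, below the 126106 to 160258 CPM of the WT libraries. The part of hepatocyte RNA in the Cyp2c differences was not tested.

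Library 1 of the labelled group carried the lowest value of most members. Cyp2c29 had 1723, 2016 and 2191 CPM in WT males on ND and 67.2, 2239 and 841 CPM in those labelled Cyp2b-null, so that group held both the highest and the lowest library (-0.91 ± 0.77, and -0.36 ± 0.36 without library 1). Cyp2c37 had 415, 375 and 446 CPM against 118, 430 and 234 CPM, and Cyp2c50 had 774, 959 and 1046 CPM against 90.6, 978 and 413 CPM. In these 3 genes library 2 lay above the middle of the WT libraries and library 3 below all of them. The Cyp2c37 difference was -0.66 ± 0.39 and -0.31 ± 0.27 without library 1, and that of Cyp2c50 -0.91 ± 0.60 and then -0.41 ± 0.34. Cyp2c54 had 317, 378 and 441 CPM against 117, 379 and 168 CPM (-0.77 ± 0.41, edgeR adjusted p = 0.315, and -0.47 ± 0.33 without library 1). Cyp2c70 had 374, 619 and 933 CPM against 51.1, 383 and 339 CPM (-1.32 ± 0.59, adjusted p = 0.262, and -0.83 ± 0.35, adjusted p = 0.254, without library 1). Cyp2c38 had 83.6, 45.0 and 40.1 CPM against 40.4, 55.0 and 65.1 CPM and differed least (-0.07 ± 0.32, and 0.09 ± 0.31 without library 1).

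The 4 members at low levels in males varied as well. Cyp2c55 had 14.2, 15.8 and 12.6 CPM in WT males on ND and 0.669, 11.4 and 4.84 CPM in those labelled Cyp2b-null. Its difference was -1.28 ± 0.77 (edgeR adjusted p = 0.372), and -0.79 ± 0.63 without library 1. Cyp2c40 ranged from 4.19 to 9.53 CPM in WT and from 0.268 to 2.85 CPM in the other group (-1.83 ± 0.62, adjusted p = 0.213, and -1.40 ± 0.48, adjusted p = 0.177, without library 1). Cyp2c69 stood at 4.78 to 8.34 CPM and 0 to 3.71 CPM (-1.57 ± 0.72, adjusted p = 0.27, and -1.07 ± 0.44, adjusted p = 0.238, without library 1). The ranges of all 3 stayed apart without library 1, where 19.7% of genes were lower without overlap. Cyp2c39 was at 2.22 to 5.02 CPM and 0.268 to 4.68 CPM, which overlap (-0.35 ± 0.67, and 0.11 ± 0.49 without library 1).

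On HFD the male groups overlapped in every member, where 8.27% of genes did not. Differences ran from -0.41 (Cyp2c55) to 0.22 (Cyp2c29), 2 higher and 8 lower, with a median of -0.10. None had an unadjusted p below 0.05 (2.12% of genes had). EdgeR called 0% of genes, also without library 1, and DESeq2 called 17 genes, 0 of them members. The intervals were wide: a 2-fold rise was excluded for 3 of 10 members, and for 9 of 10, all but Cyp2c55, when Cyp2b-null ND library 1 was left out of the shared estimate of spread. Cyp2c29 had 1633, 1384 and 911 CPM in WT males against 1134, 1578 and 1872 CPM in the labelled group. Cyp2c37 had 735, 501 and 507 CPM against 457, 638 and 597 CPM, and Cyp2c50 had 1324, 916 and 720 CPM against 818, 1040 and 1207 CPM. Each pair of ranges overlapped over most of its length. Cyp2c54 had 618, 350 and 361 CPM against 340, 486 and 455 CPM, Cyp2c70 had 412, 632 and 337 CPM against 343, 420 and 541 CPM, and Cyp2c38 had 63.4, 58.2 and 93.8 CPM against 66.7, 49.4 and 77.5 CPM. The members under 10 CPM, Cyp2c39, Cyp2c40, Cyp2c55 and Cyp2c69, lay between 0.498 and 6.17 CPM in both groups. The abundant members differed by 0.22 ± 0.77 for Cyp2c29, -0.04 ± 0.39 for Cyp2c37, -0.15 ± 0.32 for Cyp2c38, 0.05 ± 0.59 for Cyp2c50, -0.06 ± 0.40 for Cyp2c54 and -0.08 ± 0.58 for Cyp2c70. The 4 low ones differed by -0.20 ± 0.65 for Cyp2c39, -0.28 ± 0.62 for Cyp2c40, -0.41 ± 0.85 for Cyp2c55 and -0.12 ± 0.70 for Cyp2c69.

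**Figure D4:**
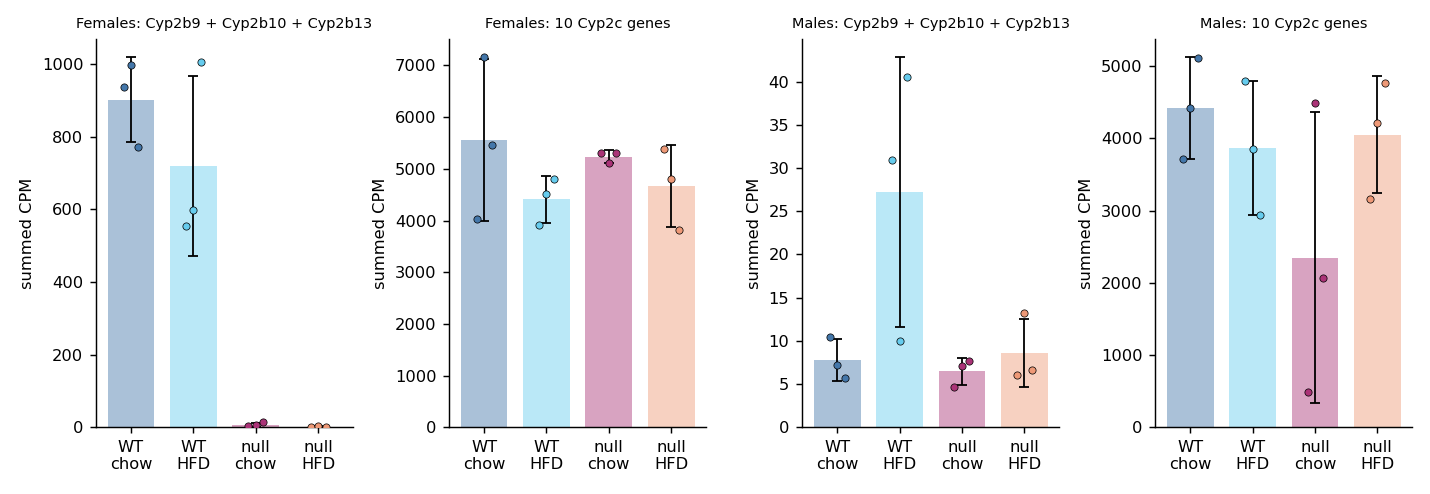
Summed CPM of the deleted Cyp2b genes and of the 10 Cyp2c genes in each group, for females (left 2 panels) and males (right 2 panels); bars are means, error bars the SD of 3 libraries and points the libraries, and each panel has its own axis from 0. In females the Cyp2b sum is 772 to 997 CPM in WT on ND and at most 13.7 CPM without Cyp2b, while the Cyp2c sums of the 4 groups overlap.

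Summed, the size of the loss can be set against the pool of Cyp2c transcripts. In females the 3 deleted genes together went from 902 ± 116 CPM (WT) to 7.68 ± 5.31 CPM (Cyp2b-null) on ND, and from 719 ± 249 CPM to 1.43 ± 1.39 CPM on HFD. The 10 Cyp2c genes together had 5549.7 ± 1566 CPM (WT) and 5239 ± 116 CPM (Cyp2b-null) on ND, and 4412 ± 453 CPM and 4670.1 ± 798 CPM on HFD. The SD of the Cyp2c sum was larger than the whole WT Cyp2b sum among WT females on ND, and among Cyp2b-null females on HFD. The sums were not tested, so a rise of that size is not excluded on either diet. In males on ND the deleted genes summed to 7.82 ± 2.42 CPM in WT and to 6.49 ± 1.59 CPM in the labelled group. On HFD they summed to 27.2 ± 15.6 CPM and 8.62 ± 3.97 CPM. The Cyp2c genes summed to 4421 ± 703 CPM in WT males on ND. The Cyp2c sum in males labelled Cyp2b-null on ND was 485, 4486 and 2072 CPM, and the HFD sums were 3865 ± 929.9 CPM (WT) and 4051 ± 813 CPM (labelled group).

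High-fat feeding of WT females gave estimates below 0 for all 9 tested members, from -1.38 (Cyp2c54) to -0.10 (Cyp2c37), with a median of -0.27 against 0.00 over all genes. None was called, where edgeR called 0.0169% of genes and DESeq2 called 23 genes, 0 of them members. Cyp2c50 and Cyp2c54 had an unadjusted p below 0.05, as 3.48% of genes had. Cyp2c54 had 226, 107 and 115 CPM on HFD against 479, 496 and 191 CPM on ND, overlapping through ND library 3 (-1.38 ± 0.49, edgeR adjusted p = 1). Cyp2c50 had 617, 650 and 793 CPM against 824, 1254 and 827 CPM (-0.50 ± 0.21, adjusted p = 1), the only member whose diets did not overlap, where 3.97% of genes were lower in that way. The close copy Cyp2c37 differed by -0.10 ± 0.22 only. The other differences were -0.40 ± 0.59 for Cyp2c29, -0.16 ± 0.20 for Cyp2c38, -0.48 ± 0.37 for Cyp2c39, -0.18 ± 0.25 for Cyp2c40, -0.24 ± 0.28 for Cyp2c69 and -0.27 ± 0.27 for Cyp2c70. A replicate block, used on the assumption that replicate numbers pair the libraries of this comparison, called no member either.

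In Cyp2b-null females the same pair, Cyp2c54 and Cyp2c50, had an unadjusted p below 0.05, as did 4.8% of genes. None of the 9 members was called, where edgeR called 0% of genes and DESeq2 called 3 genes, 0 of them members. Cyp2c54 had 268, 104 and 85.2 CPM on HFD against 336, 269 and 456 CPM on ND (-1.21 ± 0.49, edgeR adjusted p = 0.963), just without overlap. Cyp2c50 had 727, 695 and 564 CPM against 874, 880 and 1041 CPM (-0.49 ± 0.21, adjusted p = 0.963). These were 2 members lower without overlap, where 5.05% of genes were. Cyp2c39 had 8.61, 11.1 and 13.6 CPM on HFD against 8.25, 5.39 and 5.66 CPM on ND (0.78 ± 0.37, adjusted p = 0.963). No other member was higher without overlap, where 6.18% of genes were. The other 6 differed by -0.19 ± 0.59 for Cyp2c29, 0.10 ± 0.22 for Cyp2c37, -0.03 ± 0.20 for Cyp2c38, -0.14 ± 0.25 for Cyp2c40, -0.12 ± 0.28 for Cyp2c69 and 0.09 ± 0.27 for Cyp2c70.

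The untested Cyp2c55 was low on HFD in both female genotypes, at 0.772, 1.25 and 0.412 CPM with Cyp2b and 1.17, 0.463 and 0.377 CPM without it. These stand for 1 to 3 counts per library, against 3 to 20 counts on ND. Summed intestinal markers, of which 2 of 5 passed the filter, stood at 60.9 to 99.6 CPM in WT females on ND and 145 to 190 CPM on HFD, and most of this sum was Fabp2, a fatty acid binding protein. All 9 Kupffer cell markers were higher on HFD in both female genotypes, none called, with medians of 0.50 with Cyp2b and 0.78 without it. Their sums overlapped between the diets in WT (159 to 322 CPM on ND, 260 to 446 CPM on HFD), and without Cyp2b stood at 171 to 298 CPM on ND and 299.7 to 520 CPM on HFD. Hepatocyte markers summed to 95260 to 99193 CPM in WT females on HFD, below every WT library on ND (100017 to 113071 CPM). By gene they went both ways there, with 5 of the 9 higher and 4 lower on HFD, a median of 0.0002 and none called. The part of these cell types in the diet differences was not tested.

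**Figure D5:**
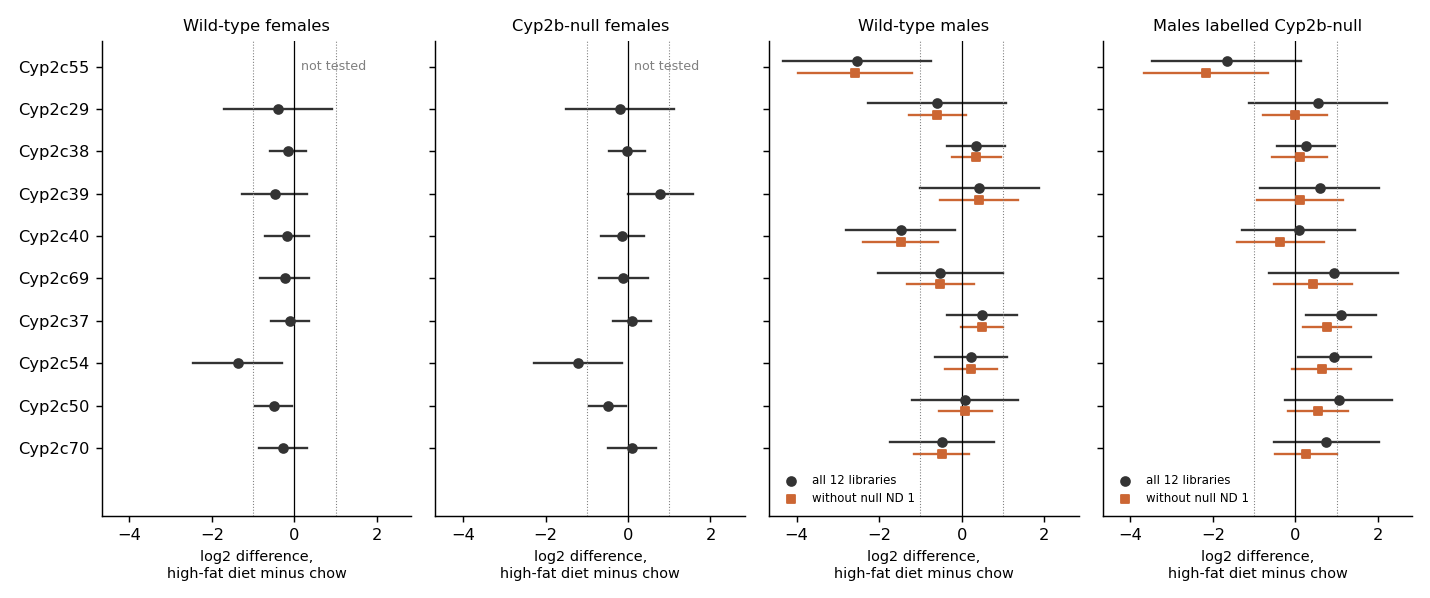
Log2 difference, HFD minus ND (horizontal axis), of each Cyp2c gene in WT and Cyp2b-null females (left 2 panels) and in WT males and males labelled Cyp2b-null (right 2 panels); points are edgeR estimates, lines 95% intervals, dotted lines a 2-fold change, and orange squares leave out male Cyp2b-null ND library 1. Cyp2c54 in females (-1.38 and -1.21) and Cyp2c55 in males (-2.53 and -1.66) lie farthest below 0.

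In WT males the diet difference was largest for Cyp2c55, a gene that drug activation of CAR and PXR is known to induce in liver. It had 14.2, 15.8 and 12.6 CPM on ND and 2.18, 4.96 and 0.498 CPM on HFD, so every HFD library lay below every ND library (-2.53 ± 0.83, edgeR adjusted p = 0.566). Without male Cyp2b-null ND library 1, which is in neither group but enters the estimate of the spread, the difference was -2.58 ± 0.62 (adjusted p = 0.0901), where 0.72% of genes were called. Cyp2c40 stood at 4.19 to 9.53 CPM on ND and 1.63 to 2.71 CPM on HFD (-1.48 ± 0.61, adjusted p = 0.722). Of the 10 members 5 were higher and 5 lower, with a median of -0.20, and none was called. EdgeR called 0% of genes, and DESeq2 called 70 genes, 0 of them members. Cyp2c40 and Cyp2c55 had an unadjusted p below 0.05 (6.49% of genes).

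Abundant members went either way in WT males. Cyp2c29 had 1723, 2016 and 2191 CPM on ND and 1633, 1384 and 911 CPM on HFD (-0.59 ± 0.77, edgeR adjusted p = 0.962). With Cyp2c40 and Cyp2c55 it made 3 members lower without overlap, where 10.1% of genes were. Cyp2c37 had 415, 375 and 446 CPM on ND against 735, 501 and 507 CPM (0.50 ± 0.39, adjusted p = 0.902), the 1 member higher without overlap (12.9% of genes, and 12.8% without the library that stood apart). Its copies Cyp2c50 (0.09 ± 0.59) and Cyp2c54 (0.23 ± 0.40) overlapped, as did Cyp2c70 (-0.48 ± 0.58), Cyp2c38 (0.35 ± 0.32), Cyp2c39 (0.43 ± 0.66) and Cyp2c69 (-0.52 ± 0.70). Summed intestinal markers were at 77.4 to 107 CPM on ND and 153 to 221 CPM on HFD in these livers. Adipocyte markers were at 5.96 to 8.30 CPM and 22.4 to 37.5 CPM. The part of both was not tested.

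Among males labelled Cyp2b-null, 9 members were higher on HFD and 1, Cyp2c55, was lower, with a median of 0.67. None was called, where edgeR called 0% of genes and DESeq2 called 110 genes, 0 of them members. Cyp2c37 and Cyp2c54 had an unadjusted p below 0.05 (11.1% of genes). Cyp2c37 had 118, 430 and 234 CPM on ND against 457, 638 and 597 CPM, without overlap as 6.37% of genes (1.11 ± 0.39, edgeR adjusted p = 0.434, and 0.76 ± 0.27, adjusted p = 0.549, without ND library 1). Cyp2c54 was higher by 0.95 ± 0.41 (adjusted p = 0.446), and by 0.64 ± 0.34 without that library. Cyp2c55 had 0.669, 11.4 and 4.84 CPM on ND and 1.35, 1.25 and 2.98 CPM on HFD (-1.66 ± 0.83, adjusted p = 0.472). Without ND library 1 its ranges no longer overlapped (-2.17 ± 0.68, adjusted p = 0.484). In that fit 9.96% of genes were lower and 9.88% higher without overlap, as Cyp2c37 was, and edgeR called 0.0859%; 7 members were higher and 3 lower, and the median was 0.19. The members not yet named differed by 0.54 ± 0.77 for Cyp2c29, 0.27 ± 0.32 for Cyp2c38, 0.59 ± 0.66 for Cyp2c39, 0.08 ± 0.63 for Cyp2c40, 1.05 ± 0.60 for Cyp2c50, 0.93 ± 0.72 for Cyp2c69 and 0.75 ± 0.58 for Cyp2c70. Without ND library 1 these were -0.01 ± 0.36 for Cyp2c29, 0.11 ± 0.31 for Cyp2c38, 0.12 ± 0.48 for Cyp2c39, -0.36 ± 0.49 for Cyp2c40, 0.56 ± 0.34 for Cyp2c50, 0.43 ± 0.44 for Cyp2c69 and 0.27 ± 0.35 for Cyp2c70.

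The test of whether Cyp2b loss changed the diet response called no member in either sex, where edgeR called 0% of genes in both. DESeq2 called 10 female and 19 male genes, 0 of them members. In females Cyp2c39 had the 1 unadjusted p below 0.05 (2.89% of genes), with an interaction of 1.26 ± 0.52 and an edgeR adjusted p of 1. Cyp2c50 had an interaction of 0.00 ± 0.30 and Cyp2c54 of 0.17 ± 0.68. For the others it was 0.20 ± 0.83 for Cyp2c29, 0.20 ± 0.31 for Cyp2c37, 0.13 ± 0.29 for Cyp2c38, 0.05 ± 0.35 for Cyp2c40, 0.12 ± 0.39 for Cyp2c69 and 0.36 ± 0.39 for Cyp2c70. In males none had such a p (4.65% of genes), and estimates ran from -0.08 (Cyp2c38) to 1.55 (Cyp2c40), with 1.14 ± 1.09 for Cyp2c29, 0.62 ± 0.55 for Cyp2c37, 0.16 ± 0.94 for Cyp2c39, 0.96 ± 0.84 for Cyp2c50, 0.72 ± 0.57 for Cyp2c54, 0.87 ± 1.15 for Cyp2c55, 1.45 ± 1.0 for Cyp2c69 and 1.23 ± 0.82 for Cyp2c70 between them. Without library 1 they ran from -0.30 (Cyp2c39) to 1.12 (Cyp2c40), with none called (0.00661% of genes). In males the intervals of 9 of 10 members reached a 2-fold rise. In females those of Cyp2c29, Cyp2c39, Cyp2c54 and Cyp2c70 did. An interaction of that size was not excluded for these members.

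The other Cyp2c genes in the tables gave a like account. Cyp2c44, an arachidonic acid epoxygenase that the annotation names Cyp2c23 and places outside the cluster on chromosome 19, had 290.5 to 370 CPM in WT females on ND and 239 to 374 CPM without Cyp2b (-0.09 ± 0.21). Together with Cyp2c67 and Cyp2c68 it made 3 tested genes, none called in any of the 10 comparisons. Cyp2c65 and Cyp2c66, close copies of each other, had at most 1.24 CPM in any library.

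Members differed in how they varied together. Cyp2c40 and Cyp2c69, with identical windows upstream (above), had a Pearson r of 0.879 and a Spearman rho of 0.783 over the 12 female libraries, and r was 0.816 without the 2 libraries farthest from the median. In 11 male libraries, without the one that stood apart, r was 0.831 and rho 0.782. Cyp2c50 and Cyp2c54 followed each other in both tables (r 0.762 and rho 0.797 in females, r 0.958 and rho 0.918 in 11 male libraries). Cyp2c37 and Cyp2c54 did so in the 11 male libraries (r 0.918, rho 0.718) and not in females (r -0.06). Some pairs with a member nearly free of shared stretches varied together too. In females Cyp2c29 and Cyp2c70 had r 0.764 and rho 0.622. In the 11 male libraries Cyp2c40 and Cyp2c55 had r 0.8 and rho 0.873. Others ran against each other, as Cyp2c29 and Cyp2c38 did (r -0.44 in females, -0.541 in those males). These values describe log2 CPM over libraries that share groups and, in pairs of close copies, stretches of sequence, and they carry no test.

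Outside the family, the genes most like the 3 highest members per kb were found by the same measure. In females Cyp2c37 was most like Cstf3 (r 0.866, rho 0.839), Cyp2c69 most like Plppr3 (r 0.896, rho 0.748) and Cyp2c29 most like the pseudogene Ap3m1-ps (r 0.959, rho 0.951). In the 11 male libraries Cyp2c29 was most like Nomo1 (r 0.949, rho 0.918). Cyp2c50 was most like Mup9 (r 0.934, rho 0.955), a major urinary protein gene, followed by Cyp1a2 (r 0.93, rho 0.918), another P450 of pericentral hepatocytes. Cyp2c37 was most like the retinal dehydrogenase gene Aldh1a1 (r 0.915, rho 0.736), and without the 2 libraries farthest from its median r was 0.739.

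Genes that work with Cyp2c enzymes or are regulated like them were described by lists. Of the 4 electron donors, 3 were higher and 1 lower in Cyp2b-null females on ND, none called, with P450 oxidoreductase (Por) nearest at 1.16 (edgeR adjusted p = 0.0816). In males on ND Por was at 0.63 (adjusted p = 0.255). Among enzymes that form or open fatty acid epoxides, 5 of 9 were tested in females and 7 of 9 in males, with none called in any of the 10 comparisons. Soluble epoxide hydrolase Ephx2 was at 0.41 in Cyp2b-null females on ND (adjusted p = 0.811). The Cyp4 hydroxylases (8 of 10 tested in females, 10 of 10 in males) also had none called.

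Of the 12 receptors and factors that regulate Cyp2c genes, none was called in any comparison among all 12 libraries. In Cyp2b-null females on ND 7 were higher and 5 lower, with a median of 0.07 against -0.02 over all genes, and in males on ND 7 were higher and 5 lower with a median of 0.67, or 8 and 4 with a median of 0.28 when male Cyp2b-null ND library 1 was left out. Nr1i3, which encodes CAR, was at 0.48 in Cyp2b-null females on HFD (edgeR adjusted p = 1). Ppara, a fatty acid receptor, was at 0.69 in Cyp2b-null females on ND (adjusted p = 0.378). In males labelled Cyp2b-null on ND it was at 1.18 over all 12 libraries (adjusted p = 0.165). On HFD it was at 0.68 in WT females and at 1.15 in WT males (adjusted p = 0.255 in the males). It was called in WT males by diet once male Cyp2b-null ND library 1 was left out.

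CAR and PXR targets outside the Cyp2b and Cyp2c families were lower for the most part in WT females on HFD: 17 of 19 tested genes, with a median of -0.48 against 0.00 over all genes, and none called. The glutathione transferase gene Gstm3 came nearest at -1.58 (edgeR adjusted p = 0.116). In Cyp2b-null females on HFD 14 of 19 were lower with a median of -0.23. In WT males 11 of 21 were higher on HFD with a median of 0.03, and Gsta1 and Cyp3a11 were called lower without the library that stood apart. Of genes under growth hormone control or with a sex bias, only Cyp2a4 was called over all 12 libraries of a sex. Cyp2a4, a steroid hydroxylase gene with a close copy in Cyp2a5, was higher in Cyp2b-null females on ND by 1.64 (adjusted p = 0.00679) and in males labelled Cyp2b-null on ND by 7.33 (adjusted p = 0.00226). Without the library that stood apart, Cyp3a41a and Cyp3a44 were called lower on HFD in both male genotype groups.

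Cyp2c genes are expressed mainly around the central vein, so zone markers were set beside them. In Cyp2b-null females on ND 9 of 14 pericentral genes were higher and 9 of 11 periportal genes lower, with medians of 0.13 and -0.43 and none called. In WT females on HFD the pericentral median was 0.16 while that of the members was -0.27. In males labelled Cyp2b-null on ND 9 of 14 pericentral genes were lower, with a median of -0.33, and the pericentral sum of library 1 was 2791 CPM against 10240 CPM or more in the other male libraries, beside its low Cyp2c sum. Leaving that library out, 7 pericentral genes were higher and 7 lower, with a median of 0.03. The part of zonation in the Cyp2c values was not tested.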

How the data were processed

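The authors deposited, for each sex, a table of raw read counts by gene symbol. The build (GRCm38.p5) and the tools (edgeR, Subread, GSNAP, Trimmomatic, FastQC) come from the submitters' processing notes, with order, settings and strand not given in the sources used here. Groups follow sample titles, which the genotype characteristic contradicts for 6 female libraries. Counts of 1801 repeated male symbols were summed (no member among them), and 25 symbols turned into dates stayed in the totals, untested. Each sex was fitted with edgeR 4.0.16 (R 4.3.3): 1 term per group, TMM, filterByExpr, robust quasi-likelihood test, which left 11830 female and 14873 male genes. The script was tested on simulated data. Alternatives were DESeq2 1.42.0, RLE scaling, unfiltered genes, fits of the compared groups alone, a replicate block, first rows of repeated symbols and leaving out each library. Replicate numbers of the titles were taken to pair WT ND with WT HFD, where deviations of same-numbered libraries correlated above 0.1 in every pair (0.139 to 0.564 in females, 0.11 to 0.127 in males). This pairing is an assumption, as the titles give only a number. In WT females, HFD library 2 also correlated with ND library 3 (0.22), and HFD library 3 with ND library 2 (0.319). The block gave same-numbered libraries of all 4 groups a common term. Between Cyp2b-null and WT females, same-numbered deviations correlated at -0.374 to -0.167 on ND and at -0.262 to 0.00492 on HFD. Every tested member is named in each comparison, and library values or ranges are given once per group for members that reach a group mean of 10 CPM; of each list at most 3 genes are named per comparison, those called or with the smallest p; likeness used log2 CPM with a prior count of 2. Members and lists were chosen with earlier results of these data known. Promoters are from RefSeq.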

Additional observations from a re-analysis of the deposited data

How the results depend on the processing

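Over 173 combinations of a comparison with an alternative, 172 called no Cyp2c gene; the exception, Cyp2c54 in males on ND without Cyp2b-null ND replicate 2, makes the range 0 to 1 for members there. Signs were less firm: 28 of 45 female differences (the largest 0.40 in size) and 16 of 50 male ones (up to 0.54) changed sign under some alternative. Counts over all genes moved more. For Cyp2b-null against WT on ND in females they were 15 as reported, 121 without a filter, 70 by DESeq2, 8 with the replicate block and 5 to 26 leaving out a library; on HFD 2, then 12 without a filter and 2 to 4. For HFD against ND they were 2 in WT females, 1 with RLE, 38 without a filter, 23 by DESeq2, 0 with the replicate block, 0 with these groups alone and 0 to 4 leaving out a library; in Cyp2b-null females 0, then 30 and 3; for the interaction 0, then 23, 10 and 0 to 1. In males on ND they were 2, 35 without a filter, 369 by DESeq2, 1 with the replicate block, 0 with the groups alone and 1 to 724 leaving out a library (724 without Cyp2b-null ND replicate 2); on HFD 0, 17 by DESeq2 and 3 alone. For WT males by diet they were 0, 6 without a filter, 70 by DESeq2, 21 alone and 0 to 109 (109 without Cyp2b-null ND replicate 1); for males labelled Cyp2b-null 0, 26, 110 and 0 to 28; for the interaction 0, 19 by DESeq2 and 0 to 1. The replicate block called 0 members in all 10 comparisons and changed no call of a member. Outside WT ND against WT HFD the replicate numbers were not taken as pairs, so its counts there are no check. The cause of these shifts was not tested. With 2.01 M to 2.66 M counts, female values near 1 CPM rest on 1 to 3 counts.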
